A study of Mus musculus with 6 samples.

Results

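Activated hepatic stellate cells and other myofibroblasts of the liver are recognised by a small set of genes, and 9 of them are described here in whole mouse liver. They are Acta2, Tagln, Myl9, Tpm2, Des, Pdgfra, Pdgfrb, Tgfb1 and Thy1, taken by name from the deposited count table, which lists 20914 genes. All are protein-coding genes in GENCODE M21 (GRCm38). Acta2 lies at chr19:34241090-34255590, Tagln at chr9:45929619-45936058 and Tpm2 at chr4:43514711-43523765, on the minus strand. Myl9 (chr2:156775420-156781658), Des (chr1:75360329-75368579), Pdgfra (chr5:75152292-75198215), Pdgfrb (chr18:61045150-61085061), Tgfb1 (chr7:25687002-25705077) and Thy1 (chr9:44043384-44048579) lie on the plus strand. All 9 were present, and all 9 passed the filter on low counts that left 13725 genes for testing. The RNA was made into 6 libraries, 3 labelled DOX and 3 labelled PBS. The groups share everything else that is stated: a genotype written BucheKI/KI-Hep, the sample name elements S10D, CKI and Alb-Cre, and BDL treatment. Alb-Cre is the usual name of a Cre driven by the albumin promoter, which is active in hepatocytes and not in the cells known for the 9 genes. BDL commonly stands for bile duct ligation, a model of cholestatic fibrosis. DOX, S10D and CKI are not spelled out in the labels, and no ages are given there. No sham-operated liver and no liver without the knock-in is among the samples, so the comparison was DOX against PBS within ligated, knock-in livers. The deposited title and design concern butyrylcholinesterase overexpressed in hepatocytes and its effect on stellate cell activation. The labels do not say whether each library is a separate animal, so the p-values below speak only for library-to-library spread, part of which may be technical.

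As background, quiescent stellate cells store retinoids in the space of Disse. After injury they lose this store, divide in response to platelet-derived growth factors (PDGF) through the receptors Pdgfra and Pdgfrb, and lay down matrix in response to transforming growth factor beta (TGF beta, gene Tgfb1). They also take on the contractile apparatus of smooth muscle, which includes alpha smooth muscle actin (Acta2), transgelin (Tagln), a regulatory myosin light chain (Myl9) and beta-tropomyosin (Tpm2). Desmin (Des), an intermediate filament of muscle, marks rodent stellate cells in both states. Thy1 is a surface glycoprotein of portal fibroblasts, another source of myofibroblasts after bile duct ligation, and in mouse also of T cells. None of the 9 genes belongs to 1 cell type alone, and in whole liver fewer cells of a type and less RNA per cell cannot be told apart.

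Total counts per library were 33711852 to 41102844 in DOX and 32826493 to 40583148 in PBS. The labelled tissue was borne out by albumin, the main secretory product of hepatocytes, whose gene Alb took 6.09% to 10.2% of the counts in DOX and 4.87% to 5.81% in PBS. Bche, the butyrylcholinesterase gene itself, stood at 969.2, 447.5 and 595.0 CPM in DOX and at 192.8, 244.9 and 194.2 CPM in PBS, with every DOX library above every PBS library (log2 fold change 1.67, SE 0.27, edgeR adjusted p = 0.106). DOX replicate 1 was its highest library, while DOX replicate 3, low for the 9 genes, lay between the other DOX libraries. The 9 genes together gave 1370 to 2546 counts in DOX libraries and 1280 to 2104 in PBS libraries, and single members rested on as few as 37 counts. Levels below are CPM, the library's counts rescaled to a common total and adjusted by the trimmed mean of M values (TMM), and 3 counts equal 0.0692 to 0.0908 CPM.

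None of the 9 genes passed the threshold between DOX and PBS (0 of 9 at an adjusted p of 0.05, edgeR quasi-likelihood test, where 0.0291% of all tested genes were called in either direction, 0.0219% higher and 0.00729% lower in DOX). At an unadjusted p under 0.05 the count was also 0, against 9.90% of all tested genes, and DESeq2 and limma-voom called 0 of 9. The DOX and PBS libraries overlapped for every one of the 9 genes, while 16.9% of all tested genes had groups that did not overlap. Under TMM scaling 8 of the 9 had a positive log2 fold change, against 47% of all tested genes, with Myl9 the exception, but with scaling by library size only the number was 6 of 9, as Tpm2 and Tgfb1 turned negative. The median log2 fold change was 0.23, beside -0.015 for all tested genes. With library size only it was 0.11, and that scaling moved the median of all tested genes to -0.149.

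What set the libraries apart was the spread within DOX. DOX replicate 3 was the lowest of the DOX libraries for all 9 genes, as it was for 38.7% of all tested genes, and DOX replicate 1 was the highest for 7 of 9, against 36.8% of all. The sum of the 9 genes was 68.0, 61.9 and 37.0 CPM in DOX replicates 1, 2 and 3, and 46.8, 38.7 and 56.3 CPM in PBS replicates 1, 2 and 3. DOX replicates 1 and 2 thus lay above, and DOX replicate 3 below, all 3 PBS libraries. The mean of the 9 genes on the log2 CPM scale was 2.26 ± 0.488 in DOX and 2.03 ± 0.229 in PBS (SD, n = 3 each).

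**Figure D1:**
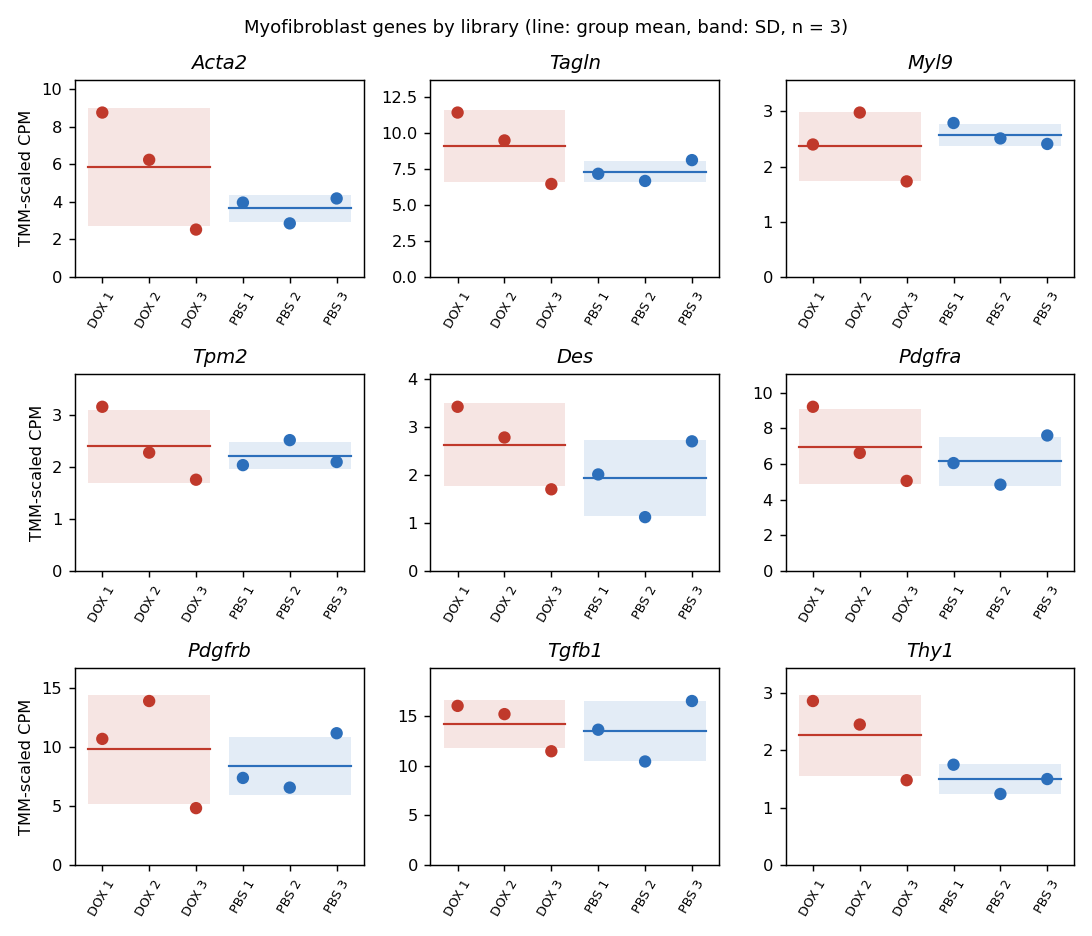
TMM-scaled CPM (vertical axes, from 0) of the 9 myofibroblast genes in the 3 DOX libraries (red) and the 3 PBS libraries (blue), with each group's mean as a line and its SD as a band. Acta2 runs from 2.51 to 8.75 CPM within DOX and from 2.84 to 4.17 CPM within PBS, and the groups overlap in every panel.

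Among the contractile genes, Acta2 had the widest spread. It stood at 8.75, 6.23 and 2.51 CPM in DOX replicates 1, 2 and 3, and at 3.95, 2.84 and 4.17 CPM in PBS replicates 1, 2 and 3. DOX replicates 1 and 2 were above every PBS library and DOX replicate 3 was below every one. The means were 5.83 ± 3.14 CPM in DOX and 3.65 ± 0.711 CPM in PBS (SD, n = 3 each), a log2 fold change of 0.67 (SE 0.40). On the linear scale this was 1.59-fold, and its 95% interval ran between 0.842 and 3.01-fold (edgeR adjusted p = 0.609, exact two-sided permutation p = 0.5). With 3 against 3 libraries, 0.1 is the smallest p such a permutation test allows. Within DOX, replicate 1 was 3.49-fold above replicate 3, with an interval of 2.76 to 4.44-fold that covers counting error only. Of all tested genes, 1.25% had a larger ratio between these libraries.

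Tagln, the actin-binding transgelin, followed the same order as Acta2 through all 6 libraries. It had 11.4, 9.48 and 6.45 CPM in DOX, against 7.16, 6.66 and 8.11 CPM in PBS. Again DOX replicates 1 and 2 stood above the PBS libraries and DOX replicate 3 below them, over a narrower span. The log2 fold change was 0.32 (SE 0.21, edgeR adjusted p = 0.64, 95% interval 0.892 to 1.74-fold), and it was 0.13 without DOX replicate 1 and 0.52 without DOX replicate 3. In the reference annotation the exons of Tagln share 108 bases with Pcsk7 and 1241 bases with Gm48529, both on the opposite strand. Whether the counting used strand is not given in the sources used here, so reads of these genes cannot be told apart from those of Tagln with certainty.

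Within the contractile group, Tpm2 and Myl9 gave smaller differences than Acta2 and Tagln. Tpm2 had 3.15, 2.27 and 1.75 CPM in DOX and 2.03, 2.51 and 2.09 CPM in PBS, with the 3 PBS libraries inside the DOX range (log2 fold change 0.12, SE 0.28, edgeR adjusted p = 0.914). Myl9 had 2.4, 2.98 and 1.73 CPM in DOX and 2.79, 2.51 and 2.41 CPM in PBS. It was highest in DOX replicate 2 and was the 1 member with a negative value (log2 fold change -0.12, SE 0.26, edgeR adjusted p = 0.906), which without DOX replicate 3 was 0.07. The 95% intervals were 0.698 to 1.68-fold for Tpm2 and 0.61 to 1.39-fold for Myl9, so that differences of such size in either direction lie within the error.

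Contractile genes are known targets of serum response factor (SRF), which binds the CArG box, formed by CC, a core of 6 bases that are A or T, and GG. The RefSeq promoter windows available for the 9 genes (GRCm38.p6, 250 bases before the annotated start) were searched for it, allowing 1 other base in the core. The pattern reads alike on both strands. Only the windows of Acta2 and Myl9 held such boxes, 2 each, shown here 5′ to 3′ with 10 flanking bases on each side and the box in capitals:
Acta2, chr19:34255438-34255467, minus strand: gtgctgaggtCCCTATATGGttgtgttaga
Acta2, chr19:34255388-34255417, minus strand: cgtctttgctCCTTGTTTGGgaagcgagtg
Myl9, chr2:156775293-156775322, plus strand: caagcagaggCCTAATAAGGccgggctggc
Myl9, chr2:156775355-156775384, plus strand: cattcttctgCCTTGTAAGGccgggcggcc
In Acta2 they lie 84 to 75 and 34 to 25 bases before the RefSeq start, and both have 1 core base that is not A or T. In Myl9 they lie 161 to 152 and 99 to 90 bases before it, and the first fits the strict pattern. Of 32851 windows of this length, 8.59% held at least 1 such box, 0.67% held 2 or more, and 1.47% held a strict one. The windows of Tpm2, Des, Pdgfra and Tgfb1 held none, and Tagln, Thy1 and Pdgfrb were not matched in the promoter table. GENCODE M21 places the start of Acta2 further upstream, at base 34255590, so that both Acta2 boxes fall in the transcribed part of that annotation. A match is a description of the letters and no evidence of binding.

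Since actins are alike in sequence, the counts of Acta2 were set beside those of its relatives. The coding sequence of Acta2 (1134 bases) was 81.5% to 85.4% identical to those of Actg2, Acta1, Actc1, Actb and Actg1, and the longest identical run with any of them was 56 bases, with Actg1. Acta1, the skeletal muscle actin, had 0 to 1 counts in DOX and 0 to 1 in PBS. Actc1, the cardiac actin, had 0 to 4 counts in DOX and 0 to 2 in PBS. Both cytoplasmic actins were abundant. Actb had 637.9, 551.6 and 503.8 CPM in DOX and 543.8, 485.8 and 614.3 CPM in PBS (log2 fold change 0.04, edgeR adjusted p = 0.943). Within each group its libraries had the same order as those of Acta2. Actg1, with another order in both groups, had a log2 fold change of -0.46 (SE 0.13, edgeR adjusted p = 0.369). Whether reads of other actins enter the Acta2 counts was not tested. Actg2, the gamma actin of visceral smooth muscle, had 19, 23 and 9 counts in DOX, against 7, 3 and 3 counts in PBS. It lay below the count filter, and without that filter its adjusted p was 0.347.

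Des, like Tgfb1, had a wider log2 range in PBS (0.98 in DOX and 1.23 in PBS). It stood at 3.42, 2.78 and 1.7 CPM in DOX and at 2.01, 1.12 and 2.70 CPM in PBS, the lowest value being that of PBS replicate 2 with 37 counts. The means were 2.63 ± 0.867 CPM in DOX and 1.94 ± 0.793 CPM in PBS (SD, n = 3 each), with a log2 fold change of 0.43 (SE 0.38, edgeR adjusted p = 0.733). Without PBS replicate 2 it was 0.16, and without PBS replicate 3 it was 0.74, so that single control libraries moved it by more than 1.5 times. Of its 3754 exonic bases, 220 are shared with the antisense gene Gm15179.

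Of the receptors, Pdgfrb, the PDGF beta receptor of pericytes and stellate cells, was second to Acta2 in its spread within DOX. It had 10.7, 13.9 and 4.83 CPM in DOX replicates 1, 2 and 3, and 7.39, 6.57 and 11.2 CPM in the PBS replicates. DOX replicate 2 was the highest of the 6 libraries and DOX replicate 3 the lowest, with the PBS libraries between them. The log2 fold change was 0.23 (SE 0.36, edgeR adjusted p = 0.861, 95% interval 0.66 to 2.07-fold). It was -0.10 without DOX replicate 2 and 0.56 without DOX replicate 3. Pdgfra, the alpha receptor found on stellate cells and fibroblasts, had 9.21, 6.62 and 5.05 CPM in DOX and 6.05, 4.84 and 7.6 CPM in PBS (log2 fold change 0.17, SE 0.25, edgeR adjusted p = 0.848). Its highest library was DOX replicate 1 and its lowest PBS replicate 2, and without DOX replicate 1 the log2 fold change was -0.07. Its exons (10024 bases) share 456 bases with Gm42802 and 166 with Gm42803 on the opposite strand.

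Tgfb1, which encodes the main fibrogenic cytokine and is also made by macrophages and endothelial cells, was the steadiest member within DOX. It stood at 16.0, 15.2 and 11.5 CPM in DOX and at 13.6, 10.4 and 16.5 CPM in PBS. The highest library was PBS replicate 3 and the lowest PBS replicate 2, and the means were 14.2 ± 2.43 CPM in DOX and 13.5 ± 3.05 CPM in PBS (SD, n = 3 each). The log2 fold change of 0.07 (SE 0.19, edgeR adjusted p = 0.924) had a 95% interval of 0.776 to 1.42-fold, the narrowest of the 9 genes. Its sign turned when PBS replicate 2 or DOX replicate 1 was left out (-0.08 and -0.02).

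Thy1 had the smallest p of the 9 genes. It stood at 2.86, 2.45 and 1.48 CPM in DOX and at 1.75, 1.24 and 1.5 CPM in PBS, with DOX replicates 1 and 2 above all PBS libraries and DOX replicate 3 among them. The means were 2.26 ± 0.705 CPM in DOX and 1.5 ± 0.257 CPM in PBS (SD, n = 3 each). The log2 fold change was 0.59 (SE 0.31, 95% interval 0.915 to 2.48-fold, unadjusted p = 0.0949 and adjusted p = 0.566 by edgeR, exact two-sided permutation p = 0.3), and it was 0.39 without DOX replicate 1. T cell markers shared its order only in part. Their summed level over 10 genes was 3.15, 6.85 and 2.24 CPM in DOX and 3.05, 3.63 and 4.23 CPM in PBS. It rested on 83 to 232 counts per library. The sum was highest in DOX replicate 2, whereas Thy1 was highest in DOX replicate 1. Within DOX both were lowest in replicate 3. Of 7 tested T cell genes, 6 had a positive log2 fold change (median 0.31). The part of T cells in the Thy1 values was not tested.

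**Figure D2:**
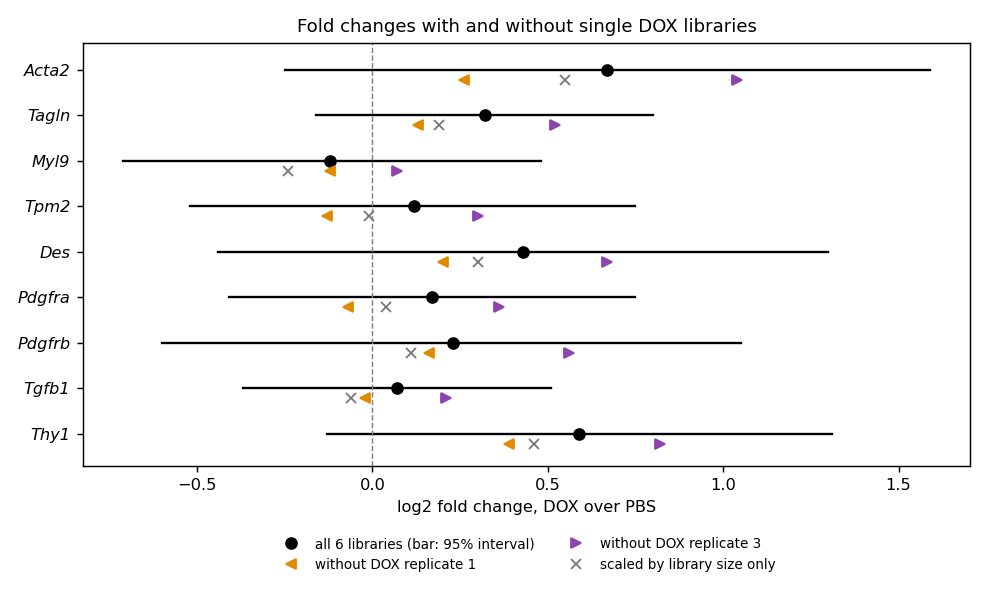
Log2 fold change of DOX over PBS (horizontal axis) for each gene, with all 6 libraries as a black point and its 95% interval as a bar, and below it the values without DOX replicate 1, without DOX replicate 3 and with scaling by library size only. All 9 intervals span 0. Acta2 lies at 0.26 without DOX replicate 1 and at 1.04 without DOX replicate 3, and Tpm2 and Tgfb1 are at -0.01 and -0.06 when scaled by library size only.

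The size of these differences depended on single libraries, DOX replicate 3 among them. Since it was the lowest DOX library for all 9 genes, leaving it out was bound to raise their fold changes. Without DOX replicate 3, all 9 log2 fold changes were positive (median 0.52), and 3 of 9 had an unadjusted p under 0.05, against 7.31% of all genes tested. By edgeR, these were Acta2 (log2 fold change 1.04, unadjusted p = 0.00308, adjusted p = 0.418), Tagln (0.52, unadjusted p = 0.0132, adjusted p = 0.592) and Thy1 (0.82, unadjusted p = 0.0205, adjusted p = 0.651). None passed after adjustment over all genes. Without DOX replicate 1 instead, 5 of 9 were positive and the median was 0.13. Leaving out a library was done for all 6, and the labels give no ground to prefer any of these fits.

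Within-group spread was measured per gene as the highest minus the lowest log2 CPM. It was wider in DOX than in PBS for 7 of the 9 genes, against 53.2% of all tested genes, the exceptions being Des and Tgfb1. In DOX the median range of the 9 genes was 0.86, against 0.35 for all tested genes, and in PBS it was 0.54, against 0.33. Acta2 had a range of 1.78 in DOX and 0.54 in PBS, and Pdgfrb of 1.52 in DOX and 0.76 in PBS. Of all tested genes, 3.34% had a wider DOX range than Acta2 and 5.38% a wider one than Pdgfrb. Low counts widen such ranges, and no test of the difference in spread was made, since 3 libraries a group leave little to test.

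**Figure D3:**
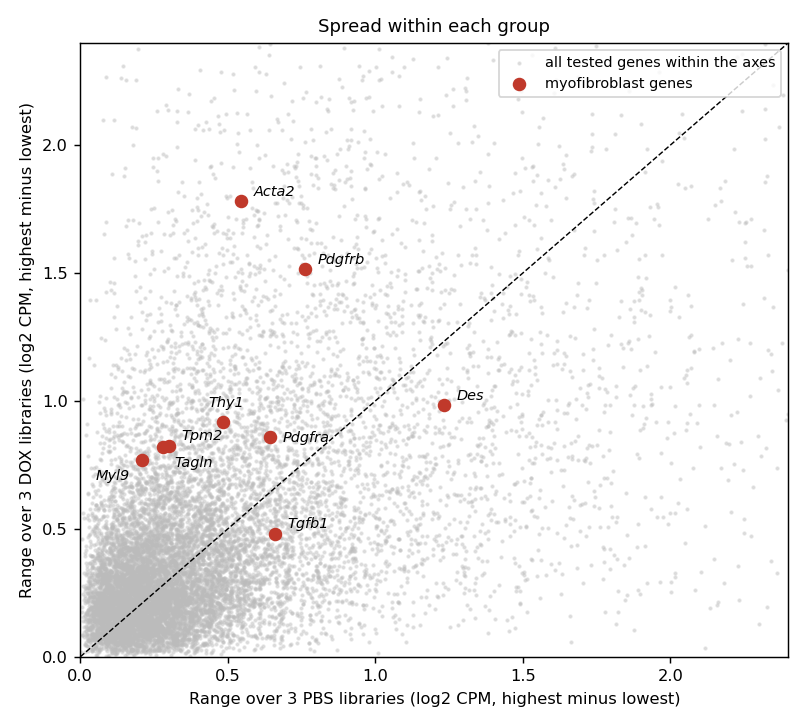
Range of log2 CPM over the 3 DOX libraries (vertical axis) against that over the 3 PBS libraries (horizontal axis) for all tested genes (grey, 223 lie beyond the axes) and the 9 myofibroblast genes (red), with the line of equal range dashed. Acta2, at 1.78 in DOX and 0.54 in PBS, lies furthest above the line among the 9, while Des and Tgfb1 lie below it.

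Levels between genes were compared per transcript length, on the deposited FPKM scale (fragments per kilobase and per unit of depth). Over the 6 libraries the mean levels ran from Tgfb1 (6.35 ± 1.33 FPKM, SD, n = 6) and Tagln (5.18 ± 1.19) through Myl9 (2.21 ± 0.471), Acta2 (1.67 ± 0.801) and Pdgfrb (1.5 ± 0.583) to Thy1, Des, Pdgfra and Tpm2 (1.08 to 0.686 FPKM). Neighbours in this order had overlapping ranges in every case but Tagln and Myl9, where the lowest Tagln library (3.67 FPKM) exceeded the highest of Myl9 (2.66 FPKM). Acta2 was above Pdgfrb in 3 of 6 libraries, so their order is not settled. Among Acta2, Tagln, Myl9 and Tpm2, Tagln was thus the most abundant per length. Acta2, the usual histological marker of activation, ranked below Tagln and Myl9. Other contractile genes were not ranked, and the limit given above for genes overlapping Tagln holds here too.

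The genes whose profiles over the 6 libraries were closest to that of Acta2 were found by a fixed measure. Likeness was the root mean square difference of log2 CPM after centring each gene on its mean, among 11945 genes of at least 1 CPM on average. The nearest 5 were Mfap4, a microfibril protein (0.150), Ccn5, a matricellular protein (0.156), Lmcd1, a LIM domain protein (0.179), Cilp, a matrix protein first known from cartilage (0.194), and Col5a1, a chain of type V collagen (0.196). The median over all genes compared was 0.637. Mfap4 had 8.75, 5.20 and 2.65 CPM in DOX and 4.48, 2.84 and 4.76 CPM in PBS, close to Acta2 in every library. It is also on the portal fibroblast list. Among the members themselves Thy1 was nearest to Acta2 (0.273) and Myl9 the most distant (0.534), with 22 and 1410 genes lying nearer than they did. These distances over 6 libraries are a description, and all genes share the libraries' differences in make-up.

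Markers of other cell types followed the order of the 9 genes only in part. In DOX replicate 3, endothelial (deviation 0.70) and hepatocyte markers (0.24) stood above the average of the 6 libraries. Portal fibroblast markers (8 tested genes) had a mean of 2.95, 2.31 and 1.7 log2 CPM in DOX replicates 1, 2 and 3. In the PBS replicates the means were 2.29, 2.27 and 2.02. They shared the order of the DOX libraries seen for Acta2, replicate 1 above 2 above 3. So did the means of quiescent stellate cell, macrophage (6.51, 6.31 and 6.11) and cholangiocyte markers (4.08, 4.04 and 3.55). Endothelial, hepatocyte, T cell and mesothelial markers did not. This order was seen for 7 of the 9 genes and for 22.1% of all tested genes. Markers of quiescent stellate cells (14 tested genes), such as Reln, the reelin gene, and Hgf, hepatocyte growth factor, had means of 3.37, 2.78 and 2.70 in DOX and 2.85, 1.28 and 3.20 in PBS. In DOX replicate 3 they stood at the average of the 6 libraries (deviation 0.00), an average that PBS replicate 2 (-1.42) lowered. At 2.70, DOX replicate 3 was the lowest DOX library for them and lay below PBS replicates 1 and 3. The 9 genes deviated by -0.44 on average in DOX replicate 3, between -0.25 for Tgfb1 and -0.82 for Pdgfrb. Reln had 16.1, 12.4 and 10.9 CPM in DOX and 10.4, 3.75 and 15.2 CPM in PBS (log2 fold change 0.43, SE 0.41, edgeR adjusted p = 0.755), and Hgf had a log2 fold change of 0.32 (SE 0.28, edgeR adjusted p = 0.729). Without PBS replicate 2 both were at 0.05, and without PBS replicate 3 they were at 0.89 and 0.55.

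PBS replicate 2 was the lowest of the PBS libraries for 7 of the 9 genes, as for 37.3% of all tested genes. In it the quiescent markers (1.28 log2 CPM) and the endothelial markers (1.78, against 3.26 to 4.19 in DOX and 3.51 to 3.54 in the other PBS libraries) were at their lowest. Cholangiocyte markers, of bile duct epithelium, were at their highest in it (4.72, against 3.55 to 4.08 in DOX and 4.24 to 4.26 in the other PBS libraries). In DOX replicate 3 the cholangiocyte markers were at their lowest (3.55), while endothelial markers (4.09) were near their highest. Their part in the values of the 9 genes was not tested. Without PBS replicate 2 the median log2 fold change of the 9 genes was 0.16, and 7 of 9 were positive.

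**Figure D4:**
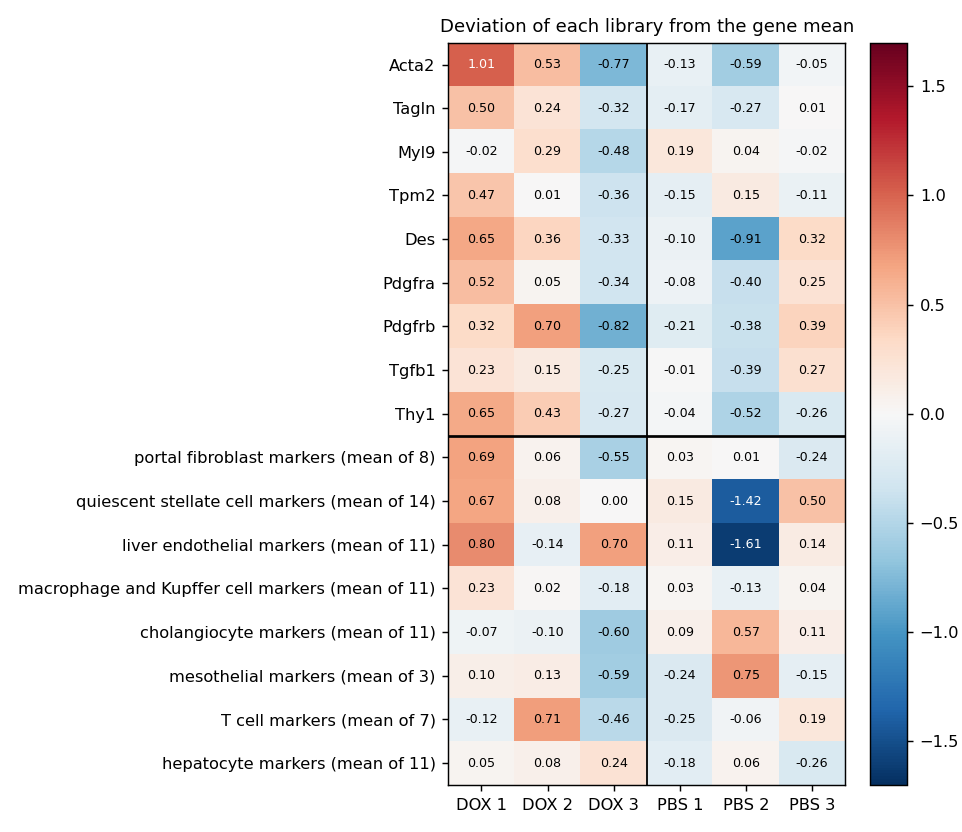
Log2 CPM of each library minus the mean of the 6 libraries (colour, with the value printed), for the 9 myofibroblast genes above the line and, below it, for lists of cell type markers averaged over their tested genes. DOX replicate 3 is negative for all 9 genes, for portal fibroblast markers (-0.55) and for cholangiocyte markers (-0.60), and positive for endothelial markers (0.70), and PBS replicate 2 reaches -1.42 for quiescent stellate cell markers.

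Skeletal muscle markers, of which 6 of 11 were matched in the table, summed to 0.454 to 1.0 CPM in DOX and 0.856 to 1.33 CPM in PBS, and Acta1 and Ckm, muscle creatine kinase, had 0 to 3 counts per library. Mylpf, the fast muscle light chain, was the 1 tested marker (log2 fold change -0.74, SE 0.46, edgeR adjusted p = 0.621), and it ranged from -1.28 without DOX replicate 2 to -0.47 without DOX replicate 1. Mesothelial markers summed to 3.81 to 7.18 CPM in DOX and 4.80 to 11.8 CPM in PBS, with log2 fold changes of -0.66 for Msln and -0.18 for Gpm6a (edgeR adjusted p = 0.696 and 0.915). Without PBS replicate 2 both were positive (0.04 and 0.27). Macrophage markers (11 tested genes) summed to 1349.8, 1186.7 and 1021.6 CPM in DOX replicates 1, 2 and 3. In the PBS replicates the sums were 1217.3, 1084.2 and 1189.4 CPM. The median log2 fold change over this list was 0.01, and 6 of the 11 values were positive. Timd4 and Marco, receptors of resident macrophages, had the smallest p (log2 fold changes 0.34 and 0.19, edgeR adjusted p = 0.689 and 0.738). Timd4 was at 0.12 without PBS replicate 2 and Marco at 0.02 without DOX replicate 3.

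Of 8 lists of cell type markers with more than 1 tested gene, 0 genes passed by edgeR and 2 by DESeq2. Over all tested genes the shares were 0.0291% by edgeR and 1.19% by DESeq2. The 2 markers were Tspan8 of the cholangiocyte list, lower in DOX (DESeq2 adjusted p = 0.00991), and Alb, higher in DOX (DESeq2 adjusted p = 0.0181). The genes of smallest p in the other lists had log2 fold changes of 0.95 for Flt1 and 1.09 for Ptprb (endothelial), 0.40 for Eln (portal fibroblast), -0.87 for Cftr (cholangiocyte), 0.54 for Apoa2 (hepatocyte) and 0.51 for Cd4 (T cell), at edgeR adjusted p values of 0.35 to 0.707. Without PBS replicate 2, Ptprb was at 0.71 and Flt1 at 0.69, and without DOX replicate 1 Eln was at 0.24. Hepatocyte markers summed to 93856.7 to 150532.1 CPM in DOX and 74072.9 to 92048.7 CPM in PBS, most of it Alb.

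The rest of the contractile programme gave no uniform picture. Of 12 other smooth muscle genes, 9 were tested, 0 passed in either direction (edgeR adjusted p), 6 had a positive log2 fold change under TMM scaling, and the median was 0.04. Csrp1, a LIM protein of smooth muscle, had 27.7, 27.7 and 22.7 CPM in DOX, below the 34.9, 45.9 and 32.3 CPM of the PBS libraries (log2 fold change -0.53, SE 0.15, edgeR adjusted p = 0.369). Cald1, the actin-binding caldesmon, had 341.0, 312.9 and 292.8 CPM in DOX and 259.5, 265.7 and 272.6 CPM in PBS (log2 fold change 0.25, SE 0.11, edgeR adjusted p = 0.5). Neither pair of groups overlapped, and their signs were opposite. Of 12 genes of SRF, its cofactors and cytoskeletal targets, 11 were tested, 0 passed and 3 had a positive value, with a median of -0.21. Actg1 (above) and Zyx, the focal adhesion protein zyxin (log2 fold change -0.24, SE 0.10, edgeR adjusted p = 0.49), had the smallest p.

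Of the 4 PDGF ligands upstream of the receptors, 0 passed (edgeR adjusted p) and 1 had a positive value, against 47% of all tested genes (median -0.33). Pdgfa was at -0.02 and Pdgfc at 0.15 (edgeR adjusted p = 0.973 and 0.884). Pdgfd, a ligand of the beta receptor, had 2.48, 2.72 and 1.81 CPM in DOX, against 3.39, 6.51 and 4.20 CPM in PBS (log2 fold change -1.0, SE 0.29, edgeR adjusted p = 0.38). Pdgfb, whose product binds both receptors, had 5.95, 5.73 and 3.91 CPM in DOX, against 7.29, 7.72 and 9.26 CPM in PBS (log2 fold change -0.64, SE 0.20, edgeR adjusted p = 0.399). Every DOX library was below every PBS library for both, as was so in 1 direction or the other for 16.9% of all tested genes. The log2 fold change of Pdgfd was -0.70 without PBS replicate 2.

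In the TGF beta pathway, Tgfb1 did not pass by edgeR, and 0 tested genes of the 3 other lists did. Among 11 other ligand and latency genes the median log2 fold change was -0.40, and 3 values were positive. Tgfb2, a ligand also made by bile duct epithelium, had 5.45, 6.03 and 2.51 CPM in DOX, below the 7.82, 13.1 and 6.55 CPM of PBS (log2 fold change -0.97, SE 0.36, edgeR adjusted p = 0.457), and its log2 fold change was -0.63 without PBS replicate 2. Itgb8, an integrin chain that takes part in releasing latent TGF beta, had a log2 fold change of -0.73 (SE 0.31, edgeR adjusted p = 0.496). The 7 receptors and Smad genes had a median of -0.04, with Tgfbr1, the type I receptor, at -0.19 (SE 0.11) and Tgfbr3, a co-receptor, at 0.71 (SE 0.40), or 0.40 without PBS replicate 2.

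Of 9 targets and feedback inhibitors of TGF beta, 2 had a positive value and the median was -0.12. DESeq2 called 1 of these 9, lower in DOX, against 1.19% of all genes tested by it. It called 0 in the ligand and receptor lists. Smad7, the inhibitory Smad induced by the pathway, had 20.1, 24.0 and 18.2 CPM in DOX and 25.1, 28.1 and 41.3 CPM in PBS (log2 fold change -0.60, SE 0.19, edgeR adjusted p = 0.4). Without PBS replicate 3 it was -0.36. Tgfb1 itself, at 0.07, differed between the groups by less than its range within either.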

How the data were processed

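Total RNA of mouse liver was made into libraries with a SMARTER mRNA-Seq kit, per the labels' protocols. Builds are GRCm38 and mm10, per the submitters' processing notes; aligner, counter and strand setting were not given in the sources used. The authors deposited read counts per gene and FPKM values for the same 6 libraries. The deposited FPKM scale with the counts, divided by library total and by 1 constant for each gene, in 18913 of 18913 genes with counts in at least 2 libraries (relative tolerance 1e-05). Depth was 32826493 to 41102844 counts. Pairs of replicates gave a chi-square of 41.9 to 132.2 per degree of freedom, more than sampling noise, and every library counts as 1 sample.

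Groups came from the sample titles. Counts of all genes were fitted with edgeR 4.0.16 in R 4.3.3 (filterByExpr, TMM, quasi-likelihood test, no block), with Benjamini-Hochberg adjustment over 13725 genes and a threshold of 0.05. SE come from the F statistic. Log2 CPM used a prior count of 2. Alternatives were RLE or library-size scaling, DESeq2 1.42.0, limma-voom (limma 3.58.1), other filters, a replicate block, each library left out, and limma on log2 of FPKM plus 1 or 0.1. The procedure was tested on simulated data. Sequences and RefSeq starts are from RefSeq (GRCm38.p6), other annotation from GENCODE M21 (GRCm38).

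The 9 genes and the 15 other lists were chosen with earlier results of these data known. Genes named from a list are the 2 of smallest p (some are not reported here), besides actin relatives and the 5 profiles nearest to Acta2. Exceptions, added after their values were seen, are Bche, the gene of the knock-in, Pdgfa and Pdgfc, which complete the PDGF list, Pcsk7, Gm48529, Gm15179, Gm42802 and Gm42803, named for their overlap with members, and Ckm, a muscle marker at 0 to 3 counts.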

Additional observations from a re-analysis of the deposited data

How the results depend on the processing

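None of the 9 myofibroblast genes passed in any of the 15 alternatives, and their median log2 fold change stayed positive (0.02 to 0.52, and 0.13 to 0.52 when 1 library was left out). The 7 genes with a wider DOX range were 7 in every scaling, prior count and FPKM setting tried. Signs turned in 12 of 135 fits of a member, none called. Tpm2 was -0.01 with library size only, -0.13 without DOX replicate 1, and -0.01 and -0.04 on log2 FPKM plus 1 and plus 0.1. Tgfb1 was -0.06, -0.02, -0.04 and -0.05 in the same settings and -0.08 without PBS replicate 2. Pdgfra was -0.07 without DOX replicate 1, Pdgfrb -0.10 without DOX replicate 2 and Myl9 0.07 without DOX replicate 3. Among other named genes, leaving out 1 library gave -0.98 to 0.04 for Msln (positive without PBS replicate 2), -0.39 to 0.27 for Gpm6a (0.01 without DOX replicate 3) and -0.04 (without DOX replicate 1) to 0.79 for Mfap4. With 1 library left out, Myl9 ran between -0.31 and 0.07, Tpm2 between -0.13 and 0.30, Pdgfra between -0.07 and 0.36, Pdgfrb between -0.10 and 0.56 and Tgfb1 between -0.08 and 0.24. The cause of these turns was not tested. Over all genes, 4 were called (3 higher, 1 lower), against 176 by DESeq2 (128 and 48), 61 without a filter (45 and 16), 2 by limma-voom (1 higher) and 2 lower with library size only. Leaving out 1 library gave 3 to 4 calls, 3 to 4 higher and 0 to 1 lower. With the replicate block 21 genes were called (17 and 4), 0 of the 9 among them. Whether the numbers pair the samples is not settled. Same-numbered libraries had correlated deviations of 0.228, 0.176 and 0.019. For DOX replicates 1 and 2 the same-numbered PBS library correlated best, while DOX replicate 3 correlated best with PBS replicate 2 (0.0653). With 3 libraries a group, the spread between them, and 37 to 618 counts per member and library, differences inside the intervals given were not detectable.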
